A study of Mus musculus with 4 samples.

Results

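The epithelium that lines the trachea and the epithelium that lines the stomach both grow out of the embryonic foregut, and these measurements set the 2 side by side. Epithelial cells that kept the red reporter protein Tomato were sorted from both organs of reporter mice, and their transcripts were counted by RNA sequencing. The comparison covered the 2 Tomato-positive libraries of the 4 libraries in the series, 1 from the trachea and 1 from the stomach. A gene entered it when it reached 50 normalized counts or more in at least 1 of the 2 libraries, which 11338 of 48587 gene symbols did. A normalized count is the number of reads assigned to a gene after the authors had divided it by a factor for its library.

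All mice were C57BL/6 and carried Tas2r143-CreERT2 together with the Rosa26flox-mT-stop-flox-mG reporter, so the tracheal and the gastric cells shared genotype, strain and treatment. The transgene places a tamoxifen-activated Cre recombinase under the promoter of the bitter taste receptor gene Tas2r143, and cells in which Cre has acted exchange Tomato for the green protein EGFP. Tamoxifen was given for 5 days and the tissue was taken 5 days after the last dose, with cells pooled from 3 mice. Tomato-positive cells were those that stained for the epithelial surface protein EpCAM and showed neither EGFP nor the dead-cell dye DAPI. They are thus the epithelial cells without recombination, which can include cells that express Tas2r143 but escaped Cre. The transgenic animals were adults of 1 line. The trachea was dissociated with dispase and trypsin and the stomach with Liberase and trypsin, so the organ and the enzyme cannot be told apart. With 1 pooled library per tissue there was no replicate error and no test of any difference, and the intervals given cover counting error alone, without amplification or sampling of cells.

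The labels of the 4 libraries disagree with themselves. The title of each sample names 1 organ while its source and tissue fields name the other. The titles were used here, since the columns of the deposited table carry the same names. The genes that mark each organ followed the titles, so their direction below is no separate evidence for the labels.

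The lining of the mouse trachea is a layer of basal stem cells, secretory club cells and ciliated cells that moves mucus and releases defence proteins. The glandular stomach is built from pits of mucous cells above glands that hold neck cells, acid-secreting parietal cells, pepsinogen-secreting chief cells and hormone-secreting endocrine cells, while its upper chamber in the mouse is lined by a squamous layer. Regional transcription factors set these territories apart in the embryo, with NKX2-1 known from the airway side and GATA factors and HNF4A from the gastric and intestinal side.

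The 6 marker genes lay far apart in the 2 libraries, each higher in the organ it was taken to mark. Cyp2f2, a cytochrome P450 enzyme of club cells, stood at 337775 normalized counts in trachea and 69 in stomach, a 4900-fold difference (95% counting interval 3940 to 6100). Krt5, the keratin of basal cells, stood at 18168 and 12, a 1510-fold difference (900 to 2650). Krt4, a keratin of suprabasal cells, stood at 52247 in trachea and 0 in stomach, at least 21300-fold higher if 3 reads are allowed for the 0. The gastric markers were the mirror image. Pgc, which encodes the protease precursor pepsinogen C, stood at 2 in trachea and 992416 in stomach, and Gkn1, the mucosal protein gastrokine of pit cells, at 2 and 468388. Chia1, the acidic chitinase that chief cells secrete, stood at 176 and 2055085, an 11700-fold difference (10200 to 13400). Chia1 alone made up 13.3% of all gastric counts.

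The promoters of a leading gene and a marker of each organ are printed to show the sequence from which some very unequal transcripts start. Each run is the RefSeq promoter on GRCm38.p6, 5′ to 3′ on the strand of the gene, from 250 bases before the RefSeq gene start to 50 after it, and motif distances are from that start. Capitals mark matches, on either strand, to TATAAA, the TATA box, to AGATAA, a core bound by GATA factors, to TGTTTAC, a forkhead core, and to CACTTG, a core bound by NKX2-1.
Bpifa1: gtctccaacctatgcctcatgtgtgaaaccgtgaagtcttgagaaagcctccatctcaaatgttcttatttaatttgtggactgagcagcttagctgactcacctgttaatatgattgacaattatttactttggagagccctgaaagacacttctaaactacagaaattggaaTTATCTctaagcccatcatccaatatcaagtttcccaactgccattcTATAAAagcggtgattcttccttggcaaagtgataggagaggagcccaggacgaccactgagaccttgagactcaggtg
Cyp2f2: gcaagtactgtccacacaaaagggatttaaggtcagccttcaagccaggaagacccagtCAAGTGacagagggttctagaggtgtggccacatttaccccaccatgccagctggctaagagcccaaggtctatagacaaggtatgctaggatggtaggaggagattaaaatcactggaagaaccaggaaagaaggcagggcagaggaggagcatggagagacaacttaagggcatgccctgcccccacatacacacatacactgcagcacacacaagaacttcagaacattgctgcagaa
Pgc: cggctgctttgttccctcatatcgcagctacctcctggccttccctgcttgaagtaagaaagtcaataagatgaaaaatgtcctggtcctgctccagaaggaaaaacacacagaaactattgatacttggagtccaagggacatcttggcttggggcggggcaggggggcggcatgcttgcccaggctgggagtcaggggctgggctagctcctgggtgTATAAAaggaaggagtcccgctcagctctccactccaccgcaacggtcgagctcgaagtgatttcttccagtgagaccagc
Gkn1: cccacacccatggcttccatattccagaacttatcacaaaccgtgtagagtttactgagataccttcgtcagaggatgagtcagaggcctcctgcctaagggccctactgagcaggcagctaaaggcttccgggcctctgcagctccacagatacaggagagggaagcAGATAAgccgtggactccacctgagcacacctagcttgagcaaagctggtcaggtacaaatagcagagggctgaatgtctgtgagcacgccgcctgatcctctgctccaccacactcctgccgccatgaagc
The windows lie at chr2:154142630-154142929 (plus strand), chr7:27119705-27120004 (plus), chr17:47726592-47726891 (plus) and chr6:87350866-87351165 (minus). Bpifa1 held TATAAA 29 bases before the start and the reverse of AGATAA at 76 bases. Pgc held TATAAA 31 bases before the start. Gkn1 held AGATAA at 82 bases before the start, and Cyp2f2 held the reverse of CACTTG at 191 bases. The forkhead letters were in none of these 4 windows. Of 27025 promoters in the table, 14.2% held TATAAA, 11.4% AGATAA, 3.55% TGTTTAC and 13.5% CACTTG.

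By GENCODE annotation of the same build, whose gene starts differ from those of RefSeq for Cyp2f2 and Gkn1, Bpifa1 is the protein-coding gene at chr2:154142880-154149219, Cyp2f2 lies at chr7:27119909-27133660, Krt5 at chr15:101707070-101712898, Krt4 at chr15:101918535-101924735, Pgc at chr17:47726842-47734482, Gkn1 at chr6:87345650-87350942 and Chia1 at chr3:106113229-106132120. Both keratin genes thus lie on the same chromosome, within the type II keratin cluster.

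Depth was alike on both sides. The values summed to 14867900 in trachea and 15433137 in stomach, which corresponds to about 18400000 and 18900000 assigned reads, and 1 read was worth 0.809 and 0.816 normalized counts. A gene at 0 therefore allows up to 2.43 or 2.45 normalized counts, the worth of 3 reads. The libraries differed in how many genes they held. The gastric library showed 16174 genes above 0 and the tracheal library 13555. Among genes at 200 or more in all 3 other libraries, 68 of 3389 stood at 2 or less in the tracheal Tomato-positive library, against 4 of 3104 for the gastric one. So 2.01% of broadly detected genes were missing in trachea and 0.129% in stomach, and the part of such gaps in the low tracheal values below was not tested.

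A gene was called higher in an organ at a 4-fold difference or more, on the scale of log2((trachea + 1)/(stomach + 1)). Of the 11338 genes, 2298 were higher in trachea (20.3%) and 3167 higher in stomach (27.9%), so that 48.2% passed in either direction. Every count of list or family members below is to be read beside these shares, and a count near them sets no list apart. The median over all genes was -0.11 and the middle of the distribution ran from -2.42 to 1.5 (quartiles). A difference of 64-fold or more was met by 672 genes higher in trachea and 1431 higher in stomach. At the limit itself, the nearest genes stood at 2.0 and 1.998 on the tracheal side and at -2.0 and -1.997 on the gastric side. These genes carried much of each library: those higher in trachea held 41.8% of tracheal counts and 2.9% of gastric counts, and those higher in stomach held 51.7% of gastric counts and 1.04% of tracheal counts. Counting error moved no share of these sets by more than 0.023 percentage points (95% Wilson interval).

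The balance of the calls depended on the level. Among genes whose higher value lay from 50 to under 200, 17.9% were higher in trachea and 43.8% higher in stomach. Among genes from 1000 to under 10000 the order turned, with 26.2% higher in trachea and 11.7% higher in stomach. Of the 259 genes at 10000 or more, 72 were higher in trachea and 42 in stomach. Many gastric calls rested on a tracheal value at the floor, as 1719 of the 3167 had 2 or less in trachea, against 677 of the 2298 tracheal calls with 2 or less in stomach. Where both libraries reached 50, 926 of 6859 genes were higher in trachea and 540 in stomach, with a median of 0.19.

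**Figure D1:**
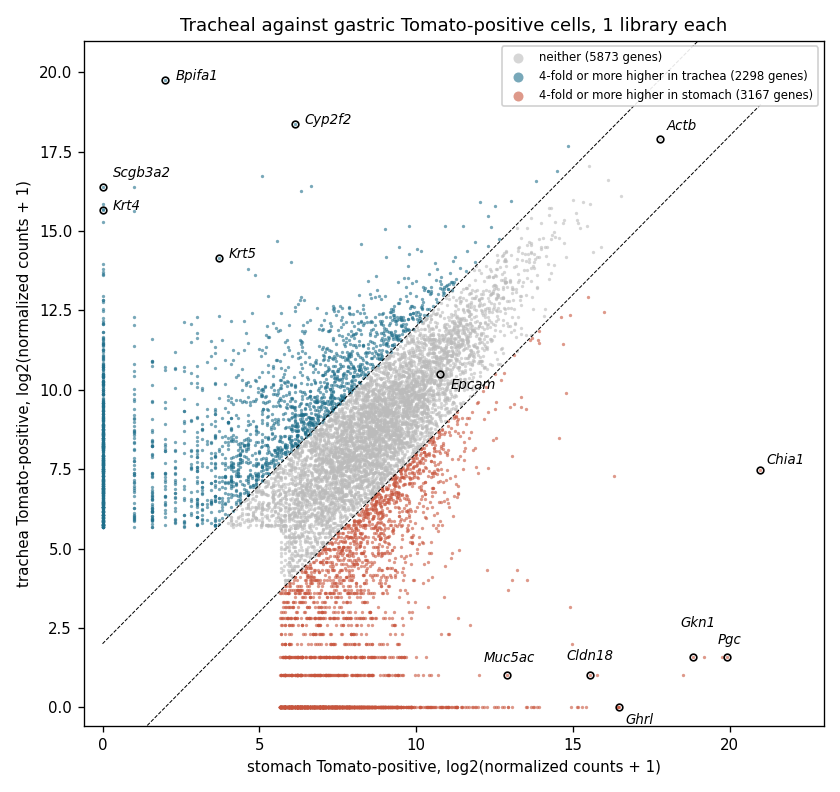
Level of each of the 11338 genes in gastric (horizontal) and tracheal (vertical) Tomato-positive cells, as log2(normalized counts + 1), 1 library each. Points are genes, coloured by call, dashed lines mark a 4-fold difference, and circled genes are named. Bpifa1, Cyp2f2 and Krt5 lie far above the lines and Pgc, Gkn1 and Chia1 far below, while Actb and Epcam lie between them.

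The gate was for EpCAM, and Epcam itself stood at 1450 in trachea and 1751 in stomach, a log2 ratio of -0.27. Cdh1, the cadherin of epithelial junctions, stood at 2876 and 4914. Of 16 genes of general epithelium, 7 were higher in trachea, 2 higher in stomach and 7 neither, with a median of -0.26. Housekeeping genes were close. Of 26 core machinery genes, 24 were called in neither direction, among them Actb, the cytoskeletal actin, at 246370 and 225281, and the median was -0.19. The exceptions were Polr2a, the large subunit of RNA polymerase II, at 5 and 771, and Emc7 at 258 and 1133, both higher in stomach. Of 78 ribosomal protein genes 77 were called in neither direction (median 0.28), and of 75 nuclear-encoded respiratory chain genes 74 (median -0.37).

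Secretory cell markers of the airway lay far apart in the 2 libraries. Of 16 club cell genes, 13 were higher in trachea, 1 was higher in stomach and 2 were neither, with a median log2 ratio of 11.01. Their counts summed to 10.2% of the tracheal library and 0.321% of the gastric library. Bpifa1, a secreted defence protein of the airway surface, stood at 882310 in trachea and 3 in stomach and alone held 5.93% of tracheal counts. The secretoglobins, small proteins that club cells release onto the airway surface, were next. Scgb3a2 stood at 86495 and 0, at least 35300-fold higher in trachea, and Scgb1a1 at 59071 and 0, at least 24100-fold higher. The detoxifying enzymes Cyp4b1 at 13266 and 0 and Cbr2 at 88245 and 99 belonged to the same list. Bpifb1 ran the other way. This relative of Bpifa1 stood at 7771 in trachea and 45309 in stomach, a log2 ratio of -2.54.

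All 11 measured basal cell genes were higher in trachea, with a median of 9.95 and a range from 2.87 to 13.95. Krt15 stood at 108030 and 33, Krt17 at 79085 and 79, and Krt14 at 15835 and 0, at least 6470-fold higher. Trp63, the transcription factor that maintains basal cells, stood at 1143 and 2. Basal cells anchor the layer to its basement membrane. Col17a1, a collagen of hemidesmosomes, stood at 2768 and 0, Lamb3, a laminin chain, at 3398 and 186, and Itgb4, the integrin of hemidesmosomes, at 1498 and 260. The squamous lining of the upper stomach also has basal cells as background, and Krt5, Krt14 and Trp63 reached no more than 12 in the gastric library.

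Of 9 squamous and suprabasal genes, 6 were higher in trachea, 2 higher in stomach and 1 neither, with a median of 6.6. Krt13, the keratin partner of Krt4, stood at 14217 and 24, and Krt6a, a keratin of activated epithelium, at 7831 and 80. Reads that map to both Krt6a and its relative Krt6b were not counted. The 2 gastric calls were genes of the cornified envelope. Sprr1a stood at 3706 in trachea and 15535 in stomach, and Ivl, which encodes involucrin, at 0 and 222.

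Ciliated cell genes were higher in trachea but low in level. Of 14 measured, 12 were higher in trachea, 1 higher in stomach and 1 neither, with a median of 7.3, and their counts came to 0.101% of the tracheal library. Dynlrb2, a dynein light chain, stood at 2720 and 0, Dnah5, a heavy chain of the ciliary outer arm, at 1906 and 2, and Rsph1, of the radial spoke, at 422 and 0. Other known markers of the type were nearly absent from both libraries. Foxj1, the master factor of motile cilia, stood at 1 in trachea and 0 in stomach, Ccdc39 at 2 and 0, and Hydin at 0 in both. Of the 4 defining ionocyte genes Foxi1, Ascl3, Cftr and Bsnd, all stood at 0 in both libraries.

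Goblet and gland genes were divided. Of 11, 6 were higher in trachea and 4 in stomach, with a median of 3.99. Ltf, the iron-binding defence protein lactoferrin, stood at 86554 and 1, and Muc5b, the mucin of airway glands, at 2442 and 0. On the gastric side of the list were genes that the stomach's mucous cells also use. Agr2, which folds mucins, stood at 3022 and 12663, and the transcription factor Foxa3 at 0 and 692.

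On the gastric side, 11 of 11 pit cell genes were higher in stomach, with a median of -11.89, and their counts made up 6.97% of the gastric library and 0.0347% of the tracheal one. Gkn2 stood at 1 and 375687, Tff1, the trefoil peptide of the surface mucus, at 8 and 30932, and Muc5ac, the surface mucin, at 1 and 7567. Gcnt3, an enzyme that branches mucin sugars, stood at 0 and 36711, at least 15100-fold higher in stomach, and Dpcr1, a membrane mucin, at 0 and 36177, at least 14900-fold higher. Pit cells keep the surface covered with this mucus. Of 7 neck and gland genes, 5 were higher in stomach and 1 in trachea, with a median of -7.64, among them Muc6 at 0 and 198 and Tff2 at 2769 and 26179. Aqp5, a water channel of glands, was higher in trachea, at 4283 and 6.

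Chief cell genes held the largest share of either library among the cell type lists. Of 9, 6 were higher in stomach, 2 higher in trachea and 1 neither, with a median of -8.34, and their counts made up 20.3% of the gastric library and 0.363% of the tracheal one. Beside Pgc and Chia1, Gif, the gastric intrinsic factor that binds cobalamin, stood at 0 and 89704, at least 37000-fold higher in stomach. Bhlha15, a transcription factor of secretory cells, stood at 0 and 324. Lipf went against its list. The gene is known as gastric lipase, and it stood at 53408 in trachea and 0 in stomach, at least 21800-fold higher in trachea, and at 924 and 0 in the EGFP-positive cells of the same organs. Lgr5, a receptor of gland stem cells, stood at 0 and 127, while its list partner Tnfrsf19 stood at 129 and 0.

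Digestive proteins known best from the pancreas were among the highest gastric genes. Pla2g1b, a secreted phospholipase, stood at 2 and 877181, and Clps, the cofactor colipase, at 2 and 587477. Cel, the bile-salt lipase, stood at 0 and 6250. Of 9 pancreatic acinar markers, 3 were measured and higher in stomach, Cel included, with Cela2a at 0 and 194 and Ctrb1 at 0 and 154, while Cpa1 and Pnlip stood at 0 in both libraries.

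Parietal cell genes were higher in stomach at modest level. Of 12, 9 were higher in stomach, 1 higher in trachea and 2 neither, with a median of -5.26, and their counts came to 0.139% of the gastric library. The subunits of the proton pump that acidifies the stomach were Atp4b at 0 and 11629, at least 4790-fold higher in stomach, and Atp4a at 19 and 4906. Kcne2, a potassium channel subunit that works with the pump, stood at 0 and 272. Aqp4, a water channel, went against its list at 807 in trachea and 70 in stomach, while the chloride exchanger Slc26a7 was at 0 in both.

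Endocrine genes set the organs apart as well. Of 8 gastric endocrine genes, 7 were higher in stomach and 1 was neither, with a median of -7.78. The hormones led the group. Ghrl, which encodes the hunger hormone ghrelin, stood at 0 and 90866, Sst, somatostatin, at 0 and 39647, and Gast, gastrin, at 0 and 31644. Hdc, the enzyme that makes histamine, stood at 184 and 5057. Of 12 genes of the secretory granule of neuroendocrine cells, 9 were higher in stomach and 0 in trachea, with a median of -7.81. Chga, the granule protein chromogranin A, stood at 0 and 88713, at least 36600-fold higher in stomach. Calca, the peptide gene of airway neuroendocrine cells, stood at 287 and 75, a log2 ratio of 1.92, just short of the limit.

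All 9 measured genes of digestive epithelium were higher in stomach, with a median of -8.49. Cldn18, the tight junction protein whose gastric form seals the stomach, stood at 1 and 47299, Anxa10 at 0 and 13894, Lgals4 at 12 and 7816, and Vil1, the microvillar villin, at 0 and 347. The gene-level counts do not tell the gastric from the lung form of Cldn18.

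**Figure D2:**
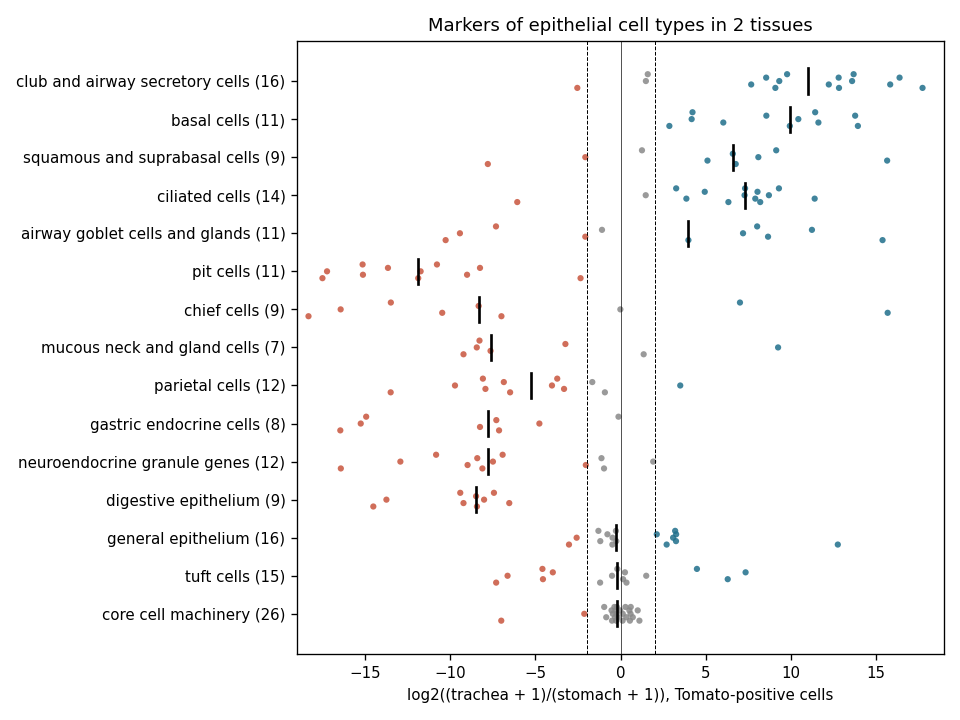
Log2 ratio of trachea over stomach for the measured markers of 15 groups, with the number of genes in parentheses. Points are genes, coloured by call (blue higher in trachea, red higher in stomach, grey neither), bars are medians and dashed lines mark 4-fold. Club and basal markers lie to the right (medians 11.01 and 9.95), pit and chief markers to the left (-11.89 and -8.34), and core machinery genes around 0.

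Tuft cells, the chemosensory type that uses taste signalling, left transcripts in both Tomato-positive libraries. Of 15 tuft cell genes, 3 were higher in trachea, 5 higher in stomach and 7 neither, with a median of -0.19, and they summed to 4132 in trachea and 8838 in stomach, against 110147 and 141629 in the EGFP-positive cells. Trpm5, the taste cation channel, stood at 265 and 376, and Gnat3, gustducin, at 524 and 473. Chat, which makes acetylcholine, stood at 162 and 0, and Dclk1, a tuft cell kinase, at 86 and 2049. Pou2f3, the tuft cell master factor, stood at 300 and 105. In the paper's cell counts, most tracheal DCLK1-positive cells carried EGFP, but only a small part of those in the stomach corpus did. The Tomato gate can thus hold unequal parts of the tuft cells of each organ, and the effect on these values was not tested.

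Of 49 measured transcription factors of the foregut and its regions, 18 were higher in trachea, 16 higher in stomach and 15 neither, with a median of 0.19. Over all genes, 20.3% were higher in trachea and 27.9% in stomach. Several factors were present in trachea and low or at 0 in stomach. Nkx2-1, which specifies the respiratory foregut, stood at 123 and 0, at least 50.2-fold higher, and Sox2, of the dorsal foregut and basal cells, at 315 and 0, at least 129-fold higher. Pax9, of the anterior foregut, stood at 3392 and 36, a 94.2-fold difference (70.3 to 130.0). Grhl3 and Grhl2, factors of barrier epithelia, stood at 472 and 0 and at 710 and 45.

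The gastric factors showed the reverse. Gata6 stood at 1 and 4122, Gata4 at 0 and 727 and Gata5 at 0 and 102. All 5 measured GATA genes were higher in stomach, a family count made after the values were seen. That count includes members beyond Gata4, Gata5 and Gata6. Mast and plasma cell markers were also mostly higher in stomach, and which cells the GATA transcripts came from was not tested. Hnf4a, the nuclear receptor of digestive epithelium, stood at 0 and 822, at least 339-fold higher. Foxq1, a forkhead factor of pit cells, stood at 0 and 1772 and Nkx6-3, of the gastric antrum, at 0 and 121. Pdx1, of the antrum and pancreas, stood at 0 and 2, under the minimum. Factors with roles in many epithelia were level. Klf5 stood at 484 and 506, Id2 at 11822 and 11920, and Mecom at 681 and 652.

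**Figure D3:**
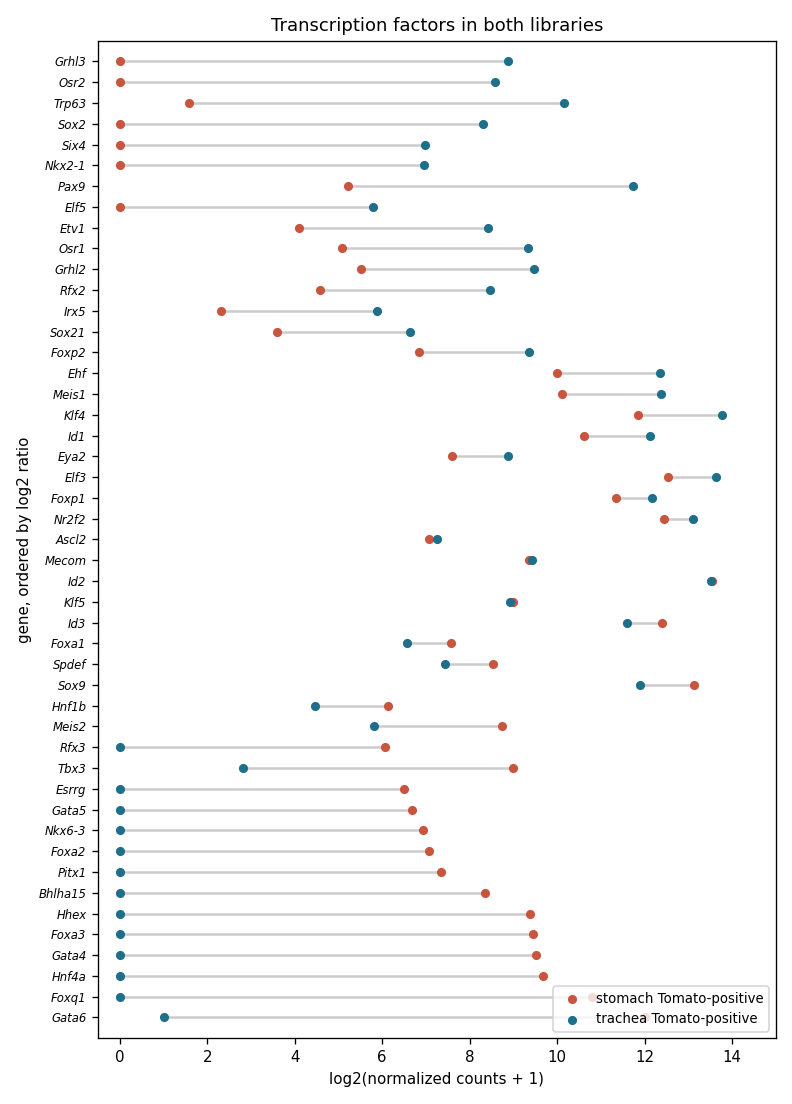
Level of 47 of the 49 transcription factors in gastric (red) and tracheal (blue) Tomato-positive cells, as log2(normalized counts + 1), ordered by the ratio. Each line joins the 2 libraries of a gene. Factors at the top, such as Grhl3, are at 0 in stomach, those at the bottom, such as Hnf4a and Gata4, are at 0 in trachea, and Klf5 and Id2 overlap.

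Genes of growth factor signalling were split by organ. Of 30, 14 were higher in trachea, 8 higher in stomach and 8 neither, with a median of 1.87. Several receptors of growth factors were higher in trachea. Fgfr3 stood at 26310 and 46, Egfr at 4085 and 258, Erbb3 at 8326 and 369, and Fgfr2, the receptor for mesenchymal growth factors in lung budding, at 2291 and 11. The receptors for R-spondins, which raise Wnt signalling, were divided. Lgr6 stood at 4303 and 0, at least 1760-fold higher in trachea, Lgr5 at 0 and 127, and Lgr4 at 12192 and 5942. Among ligands, Wnt7b stood at 1154 and 0 and Wnt4 at 1050 and 151, while Areg, an EGF receptor ligand, stood at 0 and 290 and Bmp4 at 2 and 309. The Notch ligand Jag1 stood at 11041 and 1720 and the Notch target Hey1 at 659 and 0.

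Both organs had host defence genes of their own. Of 27, 16 were higher in trachea and 6 in stomach, against 20.3% and 27.9% of all genes, with a median of 3.99. Reg3g, a lectin that binds bacteria, stood at 51239 and 1, Defb1, a defensin, at 3101 and 0, Pigr, which carries antibodies across the layer, at 1795 and 1, and Lyz2, lysozyme, at 35491 and 5413. On the gastric side, beside Chia1 and Bpifb1 these were the alarmin Il33 at 0 and 769, the neutrophil attractant Cxcl1 at 0 and 1347, Cxcl2 at 119 and 1469, and complement C3 at 86 and 1100. Ccl20, a chemokine, was on the tracheal side at 5491 and 51, and so were Duox1 at 155 and 0 and its partner Duoxa1 at 655 and 0, which release hydrogen peroxide at the surface.

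Transcripts of genes for acid secretion and fluid handling also differed between the 2 libraries. Of 26 genes of ion, acid and water transport, 7 were higher in trachea and 16 in stomach, with a median of -3.54. Car2, the carbonic anhydrase that supplies protons and bicarbonate, stood at 1 and 55240, Car9 at 0 and 3563 and the exchanger Slc9a4 at 0 and 848. Of 4 measured water channel genes, counted after the values were seen, 3 were higher in trachea and 1 in stomach, with Aqp3 at 33930 and 514. Ano1, a calcium-activated chloride channel, stood at 1387 and 263, and Scnn1a, of the epithelial sodium channel, at 62 and 1. Of 19 potassium channel genes, 3 were higher in trachea and 13 in stomach, with a median of -6.22. Of 201 solute carriers, 34 were higher in trachea and 80 in stomach, against 20.3% and 27.9% of all genes. Their median was -0.86. The peptide carrier Slc15a2 stood at 4999 and 7.

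Families with members in both organs were divided gene by gene. Of 21 measured keratins, 15 were higher in trachea and 2 in stomach, with a median of 7.08. Krt8 and Krt18, the keratin pair of simple epithelia, stood at 5185 and 31049 and at 20834 and 51187, and Krt19 was level at 15869 and 18816. Of 10 claudins, which seal tight junctions, 8 were higher in trachea and Cldn18 was higher in stomach. Cldn8 stood at 1679 and 5, Cldn10 at 641 and 0 and Cldn3 at 5221 and 614. Of 7 mucins, Muc5b, Muc4, Muc16 and Muc20 were higher in trachea and Muc5ac and Muc6 in stomach, while Muc1 stood at 3210 and 9405.

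The annexins showed such a division. Anxa8 stood at 7873 and 0, at least 3220-fold higher in trachea, and Anxa10 at 0 and 13894, at least 5720-fold higher in stomach. Anxa5 was within 2-fold, at 7201 and 4109. Of 19 S100 and annexin genes, 9 were higher in trachea and 2 in stomach. Of 12 measured serpins of clade B, inhibitors that act inside cells, 8 were higher in trachea and 1 in stomach, with a median of 5.1. Of 7 of clade A, the secreted class, 5 were higher in stomach and 1 in trachea, with a median of -6.73, a split by clade that was made after the values were seen. Serpinb11 stood at 2425 and 0 and Serpina1b, which shares sequence with its neighbours, at 0 and 265.

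Enzymes of detoxification divided likewise. Of 27 cytochrome P450 genes, 11 were higher in trachea and 8 in stomach, against 20.3% and 27.9% of all genes. Their median was -0.07. Cyp2a5 stood at 7344 and 0 and Cyp2b10 at 1019 and 21. All 4 measured Cyp2c genes were higher in stomach, led by Cyp2c65 at 0 and 2832, a count also made after the values were seen. Of 23 glutathione transferases, 3 were higher in trachea and 8 in stomach, against 20.3% and 27.9% of all genes. The median of the transferases was -0.76. Gsta1 stood at 19 and 9558 and Gstm2 at 16980 and 2306, and members of these subfamilies are alike enough in sequence to share reads. Aldh1a1, which makes retinoic acid, stood at 23075 and 698. Of 34 enzymes that build mucin sugars, 9 were higher in trachea, led by Galnt5 at 1946 and 0, and 17 in stomach, led by Gcnt3.

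**Figure D4:**
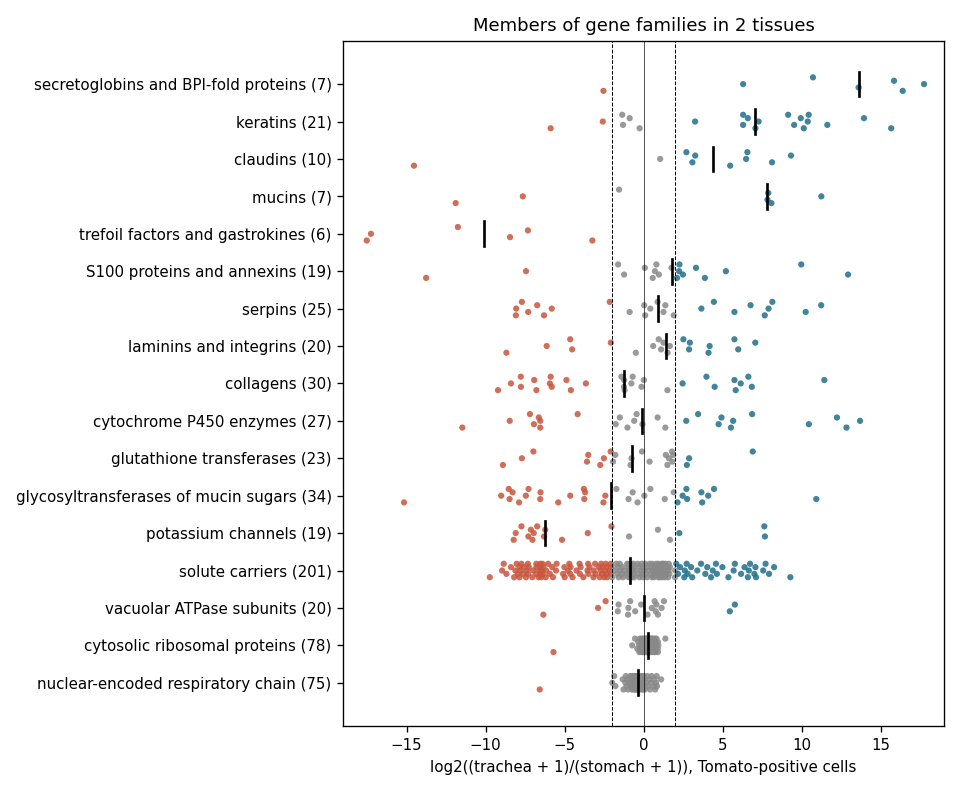
Log2 ratio of trachea over stomach for the measured members of 17 gene families, with their number in parentheses and the same colours, bars and lines as for the cell type markers. Keratins and claudins spread to the right with single members far to the left, trefoil factors and gastrokines lie wholly to the left (median -10.1), and ribosomal and respiratory chain genes gather around 0.

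Genes of cell state followed no common pattern. Of 18 cell cycle genes, 2 were higher in trachea, 8 higher in stomach and 8 neither, with a median of -1.85. Both tracheal calls, Mcm6 and Ccnb2, were lost when the median ratio of genes at 50 or more in both libraries was set to 1, and when totals were made equal without the 10 highest genes of either library. Single members stood on either side. Top2a stood at 35 and 1194 and Mki67 at 116 and 538, while Mcm6 stood at 2770 and 621 and Ccnb2 at 1985 and 478. Of 21 genes of protein folding and secretion in the endoplasmic reticulum, 0 were higher in trachea and 4 in stomach, with a median of -1.08, among them Creb3l1 at 0 and 1241, Edem1 at 4 and 2138 and Manf at 484 and 2501. Of 18 immediate early and heat shock genes, 5 were higher in trachea and 2 in stomach, with a median of 1.37. Fos stood at 62889 and 8386, Egr1 at 10296 and 1777 and Dusp1 at 19939 and 873. Genes of this kind respond quickly to tissue handling, and the enzyme mix moved with the organ, so its part was not tested.

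Markers of other cell types were present in both libraries. In pooled cells, fewer cells of a type and less RNA per cell cannot be told apart. Of 12 fibroblast genes, 1 was higher in trachea, 3 in stomach and 8 neither, and they summed to 39388 in trachea and 40631 in stomach. Col1a1 stood at 3982 and 10478 and Dcn at 19397 and 7010. All 4 measured cartilage genes were higher in trachea, at low levels from 56 to 358, and 0 in stomach. Of 6 smooth muscle genes, 3 were higher in stomach and 3 neither, with sums of 1274 and 3486, and of 6 endothelial genes 3 were higher in trachea and 1 in stomach, with sums of 3821 and 581.

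Markers of blood cells were present as well. Of 12 myeloid genes, 3 were higher in trachea, 3 higher in stomach and 6 neither, near the 20.3% and 27.9% of all genes. The myeloid median was 0.09. The list summed to 67919 and 31821, of which Lyz2, also made by epithelium, held most in trachea. Itgax, of dendritic cells, stood at 1623 and 4 and Adgre1, of macrophages, at 0 and 908. Among the B and plasma cell markers, 4 of 5 were higher in stomach, with Igha at 3 and 32337 and Jchain at 15 and 8479, and the list summed to 1547 and 69511. Its sums in the EGFP-positive libraries, which were not gated on EpCAM, were 30723 and 1395992. Of 7 mast cell genes, 6 were higher in stomach, with Mcpt2 at 155 and 2435 and sums of 372 and 5894. Ptprc, the common leukocyte marker, stood at 1 and 768, while Itgax and the leukocyte integrin gene Itgb2 were higher in trachea. Of broadly detected genes, 2.01% were missing in the tracheal library, and whether the low Ptprc is such a gap was not tested. What share of the differences above came with these blood cells was not tested.

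A few genes belonged to organs near or far. Tg, the thyroid hormone precursor, stood at 2805 in trachea and 0 in stomach, at least 1150-fold higher, while the thyroid genes Tshr and Pax8 stood at 0 in both libraries. Slc5a5, the iodide carrier known from thyroid and stomach, stood at 0 and 408. Sftpc, the surfactant protein of alveolar cells, stood at 222 and 0, and Ager at 307 and 0. Of the liver-type plasma protein genes, Ttr stood at 0 and 3983 and Apoa1 at 0 and 3285, with Alb at 0 in both. Hoxb7 was the measured gene of 39 Hox genes, at 353 and 0.

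The same organs can be compared in the EGFP-positive cells, which came from mice of the same line but hold the cells marked by Cre. Of the 2298 genes higher in tracheal Tomato-positive cells, 1346 were measured in the EGFP pair. There, 388 were again higher in trachea (28.8%, against 19.8% of all 10337 genes measured in that pair), 353 were higher in stomach (26.2%, against 28.3%) and 605 were neither, and their median log2 ratio was 0.48. Of the 3167 genes higher in gastric Tomato-positive cells, 2077 were measured. Among them 875 were again higher in stomach (42.1%, against 28.3%), 307 were higher in trachea (14.8%, against 19.8%) and 895 were neither, with a median of -1.1. The 388 shared tracheal genes made up 30.1% of the EGFP tracheal calls measured in both pairs, and the 875 shared gastric genes 38.1% of the gastric ones. The EGFP pair rests on about 6200000 assigned reads in trachea and 17300000 in stomach.

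Digestive genes lay far apart in both sorts. Cldn18 stood at 0 and 95215 in EGFP-positive cells, Car2 at 0 and 16542 and Gcnt3 at 2 and 41814. Gata6 stood at 0 and 6655 and Hnf4a at 0 and 775. Among the basal keratins, Krt15 stood at 1436 and 1 in the EGFP libraries, Krt5 at 109 and 0, and Krt14 at 0 in both, and the basal list summed to 3181 in trachea and 349 in stomach. Bpifa1 and Pgc, each abundant in the Tomato-positive cells of its organ, stood at 44284 and 1 and at 10 and 39704 in the EGFP libraries. Which cells these transcripts came from was not tested. Nkx2-1 stood at 250 and 0 and Sox2 at 56 and 0.

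**Figure D5:**
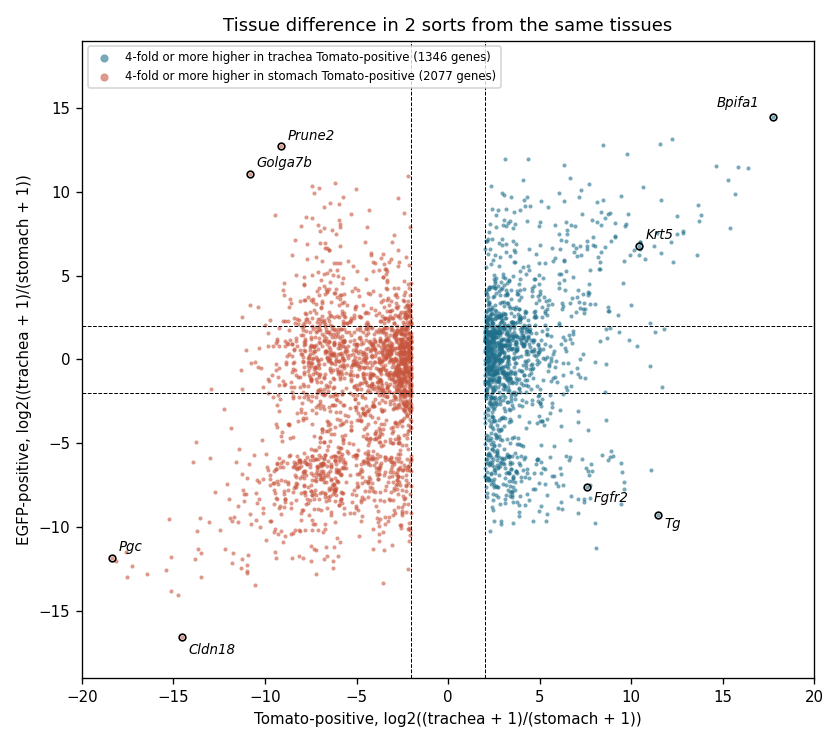
Log2 ratio of trachea over stomach in Tomato-positive (horizontal) and EGFP-positive (vertical) cells, for genes called in the former and measured in the latter. Points are genes, coloured by their call in Tomato-positive cells, and dashed lines mark 4-fold in each pair. Bpifa1 and Krt5 lie at the upper right, Pgc and Cldn18 at the lower left, and Tg and Golga7b in the corners where the directions differ.

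Highly expressed genes with no call give the other side of the comparison. Beside Actb, the 10 highest genes within a log2 difference of 0.5 included Gnb1, a G protein subunit, at 99109 and 71914, Cox6a1, of the respiratory chain, at 70480 and 94650, and Canx, a chaperone of the endoplasmic reticulum, at 59452 and 48204. Within a factor of 2 lay 3617 genes, 31.9% of those measured. The remaining tracheal genes of the 12 with the largest ratio were Sbpl at 39983 and 0, Dapl1 at 14158 and 0 and Msln, a surface protein of secretory and mesothelial cells, at 12874 and 0. On the gastric side the remaining gene was Lgals2, a galectin, at 0 and 43523.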

How the data were processed

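Sorted cells were sequenced as full-length, PCR-amplified cDNA without molecular identifiers. Per the labels and methods, reads were aligned with STAR 2.4.0a to mm10 (GRCm38) and counted per gene with featureCounts 1.4.5-p1, which did not count a read lying in more than 1 gene or mapping to more than 1 place, so paralogs and overlapping genes are uncertain. The strand setting and the origin of the factor per library are not given in the sources used here. The deposited values, a signal made by the authors by dividing counts by that factor and rounding, carry no length correction, so levels were compared between libraries, not between genes. All 37 mitochondrial genes stood at 0.

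Python 3.11.15 with pandas 2.3.3, numpy 2.4.6, scipy 1.17.1 and matplotlib 3.10.9 was used. Of several lines with 1 symbol (116 symbols), the one with the highest sum was kept. The worth of 1 read came from the gaps between low values, checked on simulated data. The pseudocount was 1, the minimum 50 and the limit 4-fold. Ratio intervals are exact binomial at 95% on estimated reads, and a fold against 0 uses 3 reads. No count model was run, since rounding leaves whole reads unrecovered and 1 library per tissue gives no residual.

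Members, 37 gene lists and 20 families, some overlapping, were chosen with earlier results of these data known. Named genes are the 6 markers, the 12 largest and 12 smallest ratios, up to 6 members per list with the largest ratio, members against their list or near 0, shared genes of high level and genes opposite in the EGFP pair. Other names and the family counts by clade were chosen after their values were seen. Some list members are not reported here. RefSeq promoters matched 8479 of the 11338 genes by symbol. Alternatives were other pseudocounts, minimums, limits, scalings and the sum of repeated lines.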

Additional observations from a re-analysis of the deposited data

Results flagged for a closer look

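Genes whose organ difference ran in opposite directions in the Tomato-positive and the EGFP-positive cells were picked out, by 4-fold or more in each pair. There were 353 genes higher in trachea among Tomato-positive cells and higher in stomach among EGFP-positive cells, and 307 genes the other way round. With 1 library per organ and sort, the difference between the 2 sorts was not tested. The 3 genes with the largest smaller difference in each direction follow.

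Tg, the thyroglobulin gene, stood at 2805 in trachea and 0 in stomach among Tomato-positive cells (log2 ratio 11.45) and at 0 and 607 among EGFP-positive cells (-9.25). Spopl, of a ubiquitin ligase complex, stood at 1373 and 1 (9.42) and at 0 and 399 (-8.64). Igkv8-27, an antibody light chain segment, stood at 545 and 1 (8.09) and at 0 and 2445 (-11.26). In the other direction, Golga7b stood at 0 and 1818 (-10.83) among Tomato-positive cells and at 2121 and 0 (11.05) among EGFP-positive cells. Prune2 stood at 5 and 3337 (-9.12) and at 6653 and 0 (12.7), and Limch1, an actin-binding protein, at 0 and 689 (-9.43) and at 388 and 0 (8.6). Each of these 6 genes was thus high in 1 library of either sort and near 0 in the other. Among genes at 200 or more in all other libraries, 3.56% stood at 2 or less in the tracheal EGFP-positive library and 2.01% in the tracheal Tomato-positive one, against 0.476% and 0.129% in the gastric ones. The part of such gaps in the opposite directions was not tested.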

How the results depend on the processing

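The counts of genes depended most on the minimum and the limit. With a minimum of 200 there were 1670 genes higher in trachea and 1633 higher in stomach, so the gastric excess was gone. With no minimum there were 2968 and 5393, and at a 2-fold limit 3514 and 4207. The other alternatives kept both counts within 1.5 times. Scaling to the same total shifted log2 ratios by 0.05, setting the median ratio of genes at 50 or more in both libraries to 1 by -0.19, and equal totals without the 10 highest genes of either library by -0.41, which gave 1886 and 3685 genes. Under the last of these Ano1, Mcm6 and Ccnb2 lost their tracheal call, and Mcm6 and Ccnb2 also under the median ratio. Under no scaling or pseudocount did any of the 175 named genes that was called change sign. Of 54 lists and families with 3 or more measured members, 8 changed the sign of their median. Those with a median past 2 in size were ionocyte genes without the 10 highest genes (-0.75) and mucins with no minimum (-1.55). Among ionocyte genes a member fell under the minimum, and among mucins other members entered. The other 6 had medians from -0.07 to 0.28: regional transcription factors, myeloid, desmosomal, cytochrome P450, ribosomal protein and vacuolar proton pump genes. Ratios of 76 named genes at a pseudocount of 0.1 and 111 at 10 moved past their counting interval, or by over 1 on the log2 scale where they had none. No paired analysis was possible because each group has 1 library, and for the same reason no library could be left out.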

Other observations

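Genes of the extracellular matrix were divided between the organs. Of 30 measured collagens, 9 were higher in trachea, 12 higher in stomach and 9 neither, against 20.3% and 27.9% of all genes for the organs. Their median was -1.22. Col4a5, of basement membranes, stood at 1804 in trachea and 79 in stomach, and Col18a1 at 0 and 592. Of 20 laminins and integrins, 8 were higher in trachea and 5 in stomach, with a median of 1.39. Itgb2, an integrin of leukocytes, stood at 2286 and 35. Of 7 desmosomal genes, 2 were higher in trachea and 5 neither, with Perp at 18434 and 2410. Of 9 gap junction genes, grouped after their values were seen, 5 were higher in trachea and 4 in stomach. Of 26 measured antibody segments, likewise grouped afterwards, 23 were higher in stomach and 2 in trachea.

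Among families the remaining counts were small. Of 7 secretoglobin and BPI-fold genes, 6 were higher in trachea (median 13.61), and all 6 trefoil factors and gastrokines were higher in stomach. Of 25 serpins, 9 were higher in trachea and 8 in stomach, against 20.3% and 27.9% of all genes. Of 19 aldehyde and alcohol dehydrogenases, 4 were higher in trachea and 5 in stomach, with Aldh1l1 at 0 and 621. The dehydrogenase counts lay near the shares of all genes. Of 20 vacuolar proton pump genes, 2 were higher in trachea and 3 in stomach, with Atp6v1c2 at 1277 and 28. All 3 measured ionocyte-list genes were pump subunits, of which 2 were higher in trachea and 1 in stomach. Of 2 measured T and NK cell genes, 1 was higher in each organ, with Trbc2 at 84 and 0. All 3 measured red cell genes were higher in stomach, with Hbb-bs at 0 and 142. Mbp, the measured gene of the nerve list, stood at 460 and 185. Of 3 thyroid-list genes, 1 was higher in trachea and 2 in stomach, with Iyd at 1 and 1431. The 3 measured liver genes were higher in stomach, and of 3 alveolar genes 2 were higher in trachea.

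Other abundant tracheal genes had lower ratios. Ptrf, a coat protein of caveolae, stood at 211287 and 29538, and Dhrs3, which handles retinoids, at 97398 and 14507. These and the other genes of this part beyond the fixed lists were chosen after their values were seen.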
